A study of Schizosaccharomyces pombe with 6 samples.

Results

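Multicistronic transcription units are stretches of the fission yeast genome that the authors' deposited table treats as 1 continuous transcript carrying more than 1 annotated gene. The members described here are the units of the class "multicistronic" whose gene identifiers name no ribosomal or small nucleolar RNA by the words RRNA or SNORNA. There were 340 of them among 5484 units; 25 further multicistronic units were left out by that rule. All 340 had enough counts to be tested. Their lowest count in any library was 38 and their median mean count was 4097, so counting error was small beside the spread between libraries. The counts are per whole unit, so the genes within a unit cannot be told apart. Unit names below join the gene names in the order of the deposited table, which is not always the order along the chromosome.

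In fission yeast most genes are read from their own promoter, and RNA polymerase II stops soon after the transcript is cut at a polyadenylation signal. When it does not stop, or when annotated genes overlap, neighbouring genes on 1 strand share a transcript, which in eukaryotes seldom leads to translation of both coding regions. Spt5, together with Spt4, travels with the polymerase and helps it to elongate, and in yeasts it has also been linked to termination.

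All 6 libraries came from the haploid h- strain ASP167. In it the promoter Pnmt81, which thiamine represses, drove spt5, whose protein carried a V5-IAA17 tag, an auxin-dependent degron. The ade6 locus held the plant auxin receptors OsTIR1 and AtTIR1 fused to skp1 (the second also to 2NLS-9myc) under Padh15, and the strain carried ura4-D18. Cultures grew in EMM, a minimal medium, at 30 °C. Thiamine and the auxin NAA were added at 0 h, and new RNA was labelled with 4-thiouracil (5 mM, 10 min) at 0, 2.5 and 4.5 h, with 2 libraries a time, which the series' design text calls biological replicates. The 0 h libraries are the comparison group. As no untreated time course is used here, loss of Spt5, thiamine, NAA and hours of growth cannot be told apart. No spike-in is used here either: a change is relative to the rest of its library, and a change in RNA per cell cannot be read from it.

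Assigned counts were 11525663 to 35673601 per library, and 5208 units were tested. The transcript of spt5 was lower at both later times (log2 fold change -2.95 and -3.21), as were thi2, thi4, thi9, bsu1 and pho4, genes repressed by thiamine, which checks the labels. The libraries of 0 h differed from each other far more than those of later times. Among the members, 35 differed at least 2-fold between the 0 h libraries, against 2 at 2.5 h and 1 at 4.5 h. Of these 35, 34 were higher in replicate 1, and they included 11 of the 13 members that hold a cytoplasmic ribosomal protein gene. Over all members the median difference, replicate 1 minus 2, was -0.01 on the log2 scale, and over those 13 it was 2.02.

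**Figure D1:**
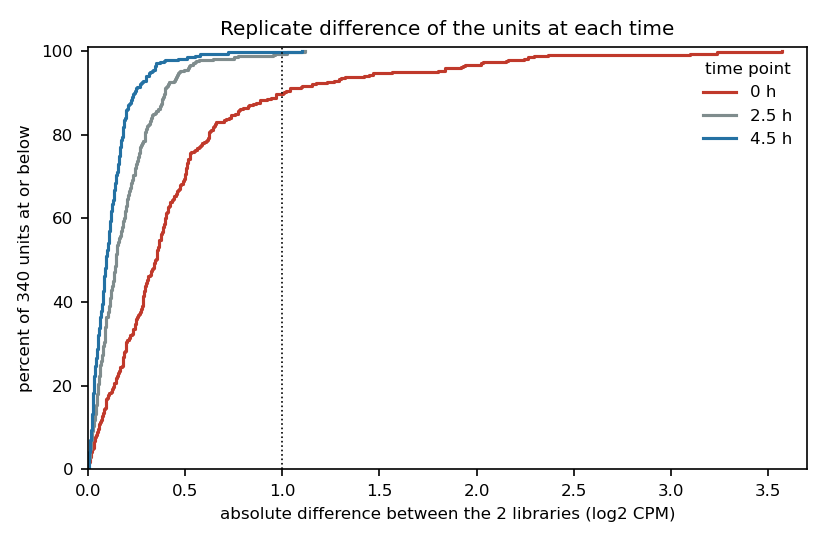
Share of the 340 units (percent, vertical axis) whose 2 libraries of a time point differ by at most the value on the horizontal axis (log2 CPM); the dotted line marks a 2-fold difference. The curve of 0 h lies to the right of the others: its median difference was 0.35, against 0.14 at 2.5 h and 0.09 at 4.5 h.

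Most units joined a pair of genes: 311 listed 2 identifiers, 23 listed 3 and 6 listed 4. Of the 715 identifiers 700 (97.9%) matched RefSeq genes, and each matched gene overlapped its unit on the same chromosome and strand. They comprised 618 protein-coding genes, of which 601 had the whole coding region inside the unit, 74 long noncoding RNAs, 3 pseudogenes, 2 small nucleolar RNAs, 1 small nuclear RNA and 2 other noncoding RNAs. By what they held, 260 units had protein-coding genes only, 60 had 1 protein-coding gene with a noncoding one, 9 had at least 2 protein-coding genes with a noncoding one, and 11 had noncoding genes only. Pseudogenes and unmatched identifiers count here as noncoding. For 36 of the 60 units with 1 protein-coding gene, RefSeq describes the noncoding gene as a possible or probable UTR. For these the annotation gives 1 gene and a possible extension of its transcript, rather than separate genes. How the authors defined the class is not given in the sources used here, and reads that join genes were not analysed here.

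The units lay on both strands (161 plus, 179 minus) and on all chromosomes (155 on I, 118 on II, 67 on III). They were 226 to 10258 bases long with a median of 3118, against 1767 for the 4105 single-gene coding units. At 0 h their median level was 56.0 CPM per kb of unit length (CPM is the count scaled to the TMM-adjusted library total), against 41.2 for single-gene coding units. A coding unit on the other strand overlapped 117 members and a noncoding one 84. How reads were assigned to strands is not given in the sources used here, so reads from such pairs may not be told apart.

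Neighbouring coding regions inside a unit lay close together. Between the 279 pairs of adjacent same-strand protein-coding genes within units the spacer, from stop codon to start codon, had a median of 425 bases (quartiles 250 and 679.5). For 1473 such pairs in separate coding units the median was 782 bases (quartiles 543 and 1143). Spacers under 300 bases made up 32.6% of the pairs within units and 4.21% of the others. The hexamer AATAAA, the usual polyadenylation signal, occurred on the coding strand in 40.5% of spacers within units and in 70.1% of the others; on either strand it occurred in 76.3% and 94.6%. Longer spacers hold any hexamer more often, so spacers were also compared within ranges of length, which narrows the difference in length without removing it. Within units and outside, the median spacer was 196 and 252 bases in the range under 300. It was 432 and 476 bases from 300 to under 600, 724 and 772 from 600 to under 1000, and 1395 and 1397 from 1000 on. The shares within units and outside were 17.6% and 22.6% for spacers under 300 bases, 41.4% and 56.5% from 300 to under 600, 53.3% and 70.6% from 600 to under 1000, and 88.9% and 86.7% from 1000 bases on. These are descriptions of the genome at units the authors had already defined; no test was made.

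**Figure D2:**
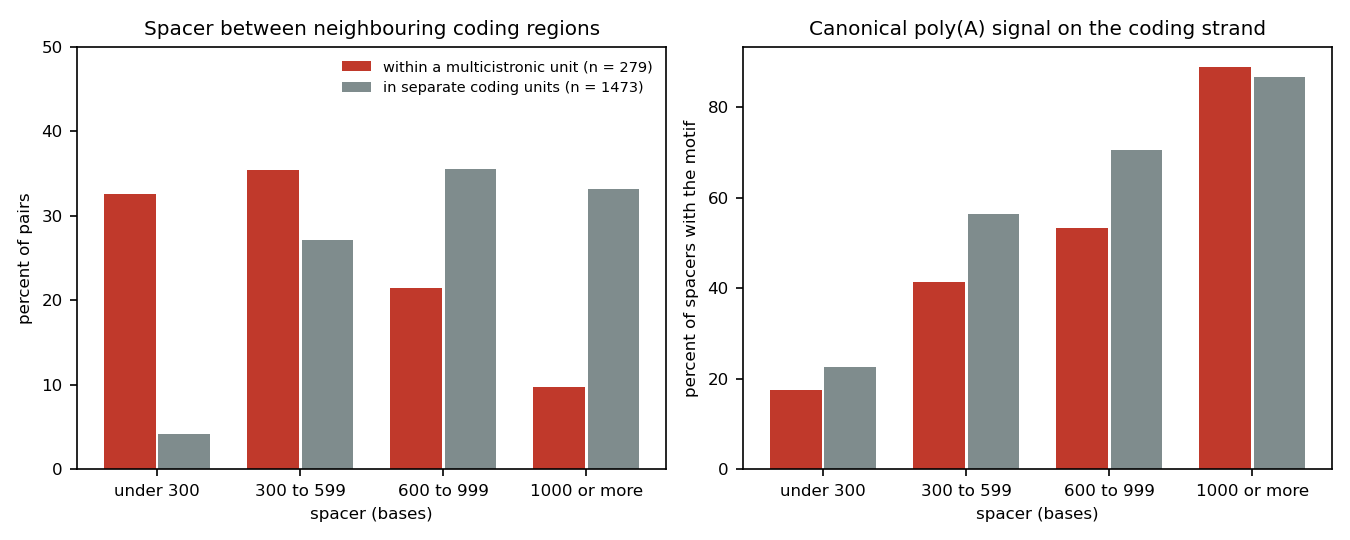
Left, percent of neighbouring same-strand coding pairs by spacer length in bases; right, percent of spacers of that length that hold the canonical hexamer on the coding strand. Pairs within a multicistronic unit (red) are shorter than pairs in separate units (grey), and below 1000 bases fewer of their spacers hold the hexamer. Below 1000 bases their median spacer is also the shorter one inside each range of length.

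The tightest junctions show how close the coding regions of a unit can be. In the pairs erf4 with rit1 and ubc14 with sfc7 the coding regions overlapped, by 22 and 26 bases. The lines below give 30 bases of the coding strand around each junction from RefSeq ASM294v3, with the start codon of the downstream gene and the stop codon of the upstream gene in capitals. In the first pair of lines the start comes before the stop; in the second pair a spacer of 12 or 20 bases follows the stop.
ubc14 to sfc7, chrI:5098185-5098214, minus strand: ttATGtcgagcaattcgccaagtctTGAaa
erf4 to rit1, chrI:2828662-2828691, minus strand: acgaATGgacgaattcgacccttTAGacgc
ema19 to mud1, chrI:1139109-1139138, plus strand: agtgatTAAgaaaacacaaaaATGaataat
spc19 to set11, chrIII:1846190-1846219, minus strand: atTAAgttgttgggtctatttccagATGag

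These units join genes of unlike roles: a ubiquitin-conjugating enzyme (ubc14) with a subunit of the RNA polymerase III factor TFIIIC (sfc7), and a subunit of the DASH complex of the kinetochore (spc19) with a protein methyltransferase (set11). Other units had longer spacers than these junctions, with canonical signals inside. The lines below show the first AATAAA (capitals) of the coding strand, within 30 bases, in the spacers of 3 units whose changes are described further on. It began 265, 751 and 274 bases into spacers of 2647, 2371 and 324 bases.
SPBC36.02c to SPBC36.01c, chrII:837270-837299, minus strand: ttttcctctcttAATAAAtaatcaaatcaa
eta2 to pac2, chrI:3004505-3004534, plus strand: aaaaaaaaaaagAATAAAataagtatagtt
SPCC417.16 to SPCC417.15, chrIII:1702876-1702905, minus strand: tttatgcattgaAATAAAttgctttacagc

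The first question was how new RNA of these units differed 2.5 h into depletion. At 2.5 h 41 of 340 units rose and 5 fell relative to 0 h, 13.5% in all. Among all tested units 17.4% were called (12.3% rose and 5.11% fell), and among single-gene coding units 13.5%. The rises ranged from 0.64 to 3.25 on the log2 scale and the falls from 0.54 to 0.84. The median over the 340 units was 0.11, against 0.01 over all tested units and -0.08 over single-gene coding units. In all 3 comparisons a call is an adjusted p under 0.05 in edgeR's quasi-likelihood fit, adjusted by Benjamini-Hochberg over the 5208 units. The count rested on the libraries used, as did that over all units: it was 150 without replicate 1 and 122 without replicate 2 of 0 h, 8 and 0 without replicate 1 and 2 of 2.5 h (63 and 53 units then had an unadjusted p under 0.05), and 14 without either library of 4.5 h. As shares of the members and of all tested units these were 44.1% and 42.0%, 35.9% and 41.0%, 2.35% and 3.48%, 0 and 0.019%, and, for the 4.5 h libraries, 4.12% against 7.04% and 7.23%. Whether members were called more or less often than other units thus depended on the 0 h library used.

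The largest rise was that of nam3/SPNCRNA.532. RefSeq describes both identifiers as the long noncoding RNA nam3, so this unit may hold 1 RNA under different names. Its level was 48.9 and 72.9 CPM per kb at 0 h, 486 and 673 at 2.5 h, and 379 and 411 at 4.5 h. All later libraries lay far above both 0 h libraries, and it rose at 2.5 h by 3.25 (SE 0.28, adjusted p = 0.00468). At 4.5 h the rise was 2.70 (SE 0.27, adjusted p = 0.00487).

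A further 3 of the 8 largest rises at 2.5 h were also units without a protein-coding gene. SPNCRNA.1608/SPNCRNA.574, whose whole length is overlapped by a coding unit on the other strand, had 3.39 and 3.23 CPM per kb at 0 h, 18.0 and 18.6 at 2.5 h, and 13.9 and 15.7 at 4.5 h. Replicates lay close together and the later libraries well above 0 h; the unit rose by 2.47 (SE 0.19, adjusted p = 0.00468). SPNCRNA.1099/SPNCRNA.1100, with a coding unit opposite 72.7% of its length, rose by 2.26 (SE 0.27, adjusted p = 0.00658). The unit tos2/SPNCRNA.132/tos1 rose by 1.51 (SE 0.23, adjusted p = 0.0113).

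The strongest riser with protein-coding genes only was kti12/tsn1, which joins the gene of an Elongator-associated protein, of tRNA modification, with that of translin, a nucleic acid-binding protein. It stood at 15.8 and 11.9 CPM per kb at 0 h, 43.0 and 48.0 at 2.5 h, and 29.4 and 26.8 at 4.5 h. The groups did not overlap, and the unit rose by 1.72 in the first interval (SE 0.19, adjusted p = 0.00584). The rise over the whole 4.5 h was 1.02 (SE 0.19, adjusted p = 0.0181).

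SPBC36.01c/SPBC36.02c joins a pair of tandem genes that RefSeq both describes as spermidine family transporters. The unit had 128 and 165 CPM per kb at 0 h, 411 and 442 at 2.5 h, and 321 and 327 at 4.5 h. Every later library exceeded both 0 h libraries, with a rise of 1.54 at 2.5 h (SE 0.21, adjusted p = 0.0083). The genes are annotated with the same product, and how reads that fit more than 1 place were treated is not given in the sources used here.

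A rise that did not last was that of dpp2/SPACUNK4.09/gor1, which holds genes of a dipeptidyl peptidase, an uncharacterized protein and a glyoxylate reductase. Its level was 83.0 and 79.9 CPM per kb at 0 h, 217 and 246 at 2.5 h, and 121 and 114 at 4.5 h. It rose by 1.51 at 2.5 h (SE 0.16, adjusted p = 0.00562) and then fell by 0.99 to 4.5 h (adjusted p = 0.0287).

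The 5 units that fell at 2.5 h were mlo3/nam1 (-0.84), pef1/naa20 (-0.74), nog2/snR191 (-0.72), eta2/pac2/SPNCRNA.01/SPNCRNA.71 (-0.70) and dhm1/puf6 (-0.54). Mlo3 is an RNA-binding protein of mRNA export, Pef1 a cyclin-dependent kinase, Naa20 the catalytic subunit of the NatB acetyltransferase, Eta2 an RNA polymerase I termination factor, and Puf6 an RNA-binding protein of the Puf family. The lncRNA nam1 lies downstream of mlo3, and their unit had 173 and 154 CPM per kb at 0 h, 95.7 and 86.8 at 2.5 h, and 130.3 and 122 at 4.5 h. The 2.5 h libraries were the lowest and those of 4.5 h lay in between.

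The unit of eta2 and pac2 was the member that fell at both times. It had 147 and 163 CPM per kb at 0 h, 93.2 and 97.1 at 2.5 h, and 92.2 and 85.2 at 4.5 h. The 4 later libraries lay close together, all below 0 h, and the log2 fold change at 4.5 h was -0.81 (SE 0.15, adjusted p = 0.0199).

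**Figure D3:**
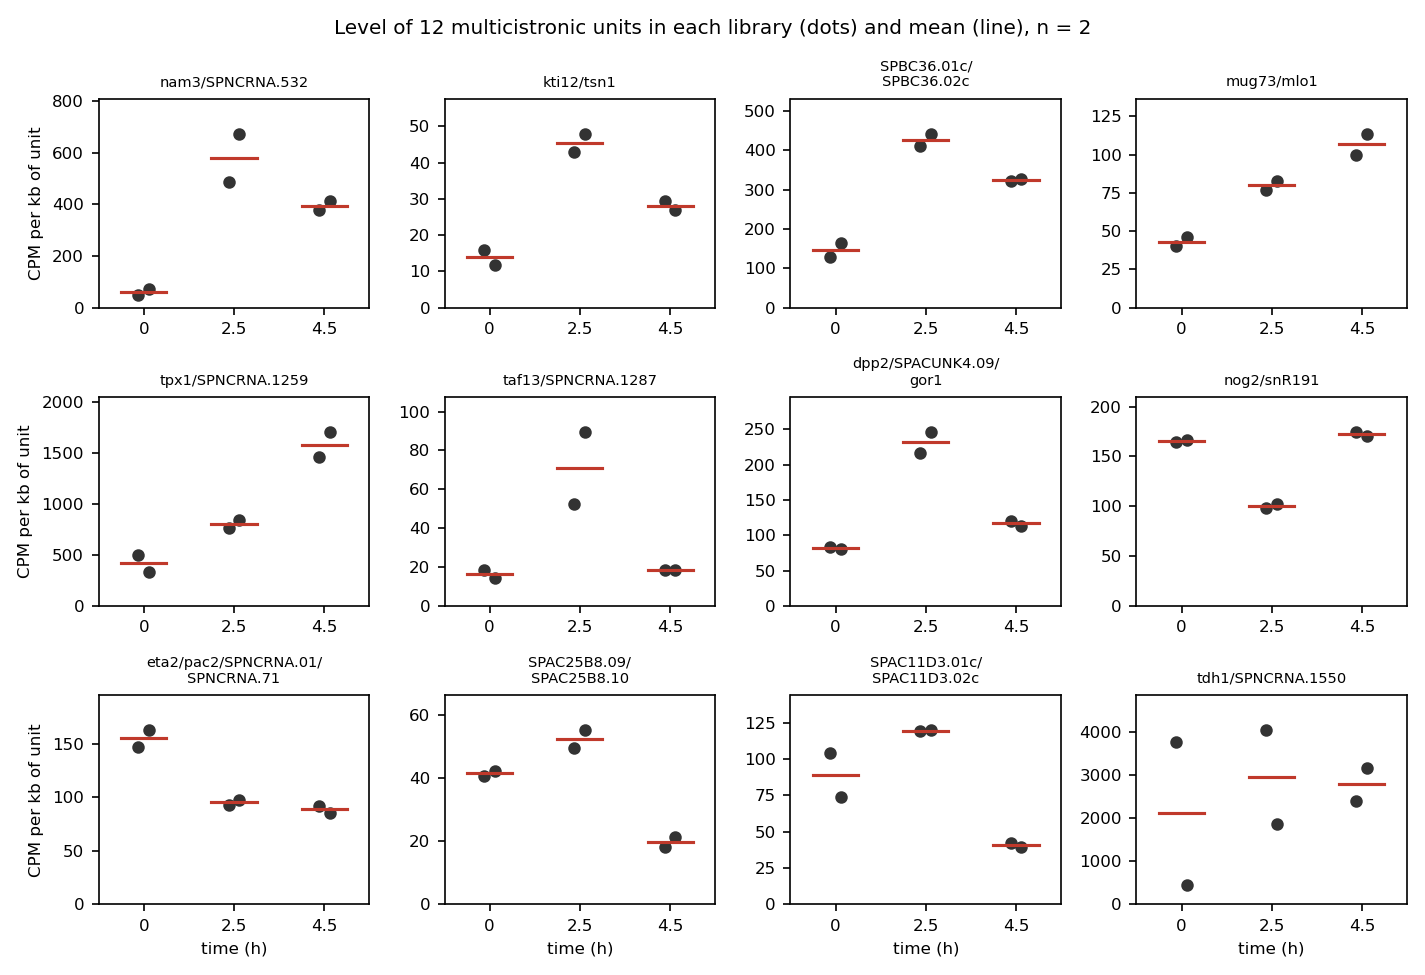
Level (CPM per kb of unit length, linear axis from 0) of 12 units in each library (dots) at 0, 2.5 and 4.5 h, with the mean of the 2 libraries as a line. In the tdh1 unit the 0 h libraries lie far apart, at 3786 and 441, whereas in kti12/tsn1 or nog2/snR191 the libraries of each time lie together.

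The second question was the same at 4.5 h. Then 30 units rose and 15 fell relative to 0 h, 13.2% in all. The background over all tested units was 17.9% (10.1% rose and 7.8% fell). The rises ranged from 0.51 to 2.70 and the falls from 0.65 to 1.24 on the log2 scale. The median of the 340 was 0.10, against 0.02 over all tested units and -0.04 over single-gene coding units. Both comparisons use the same 0 h libraries: 20 units rose at both times and 1 fell at both. How many of all tested units did so was not counted. Leaving out a library of 2.5 or 4.5 h lowered the number of calls over all tested units as well as among the members. The count was 135 and 147 without replicate 1 and 2 of 0 h, 10 without either library of 2.5 h, and 3 and 2 without replicate 1 and 2 of 4.5 h. Without replicate 2 of 0 h the share of members, 43.2%, was above the 40.4% of all tested units; without replicate 1 it was 39.7% against 41.5%.

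After nam3/SPNCRNA.532 and SPNCRNA.1608/SPNCRNA.574 the largest rise at 4.5 h was that of tpx1/SPNCRNA.1259. Tpx1 is a peroxiredoxin that removes peroxides and relays their signal to the transcription factor Pap1; RefSeq calls the noncoding gene a possible alternative UTR. The unit had 503 and 333 CPM per kb at 0 h, 759 and 842 at 2.5 h, and 1455 and 1702 at 4.5 h. The values climbed from each time to the next without overlap, and the rise at 4.5 h was 1.92 (SE 0.25, adjusted p = 0.00844).

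The next largest rises were these. The unit osr1/SPCC663.07c/SPCC663.08c, with genes of dehydrogenases, rose by 1.61 (SE 0.32, adjusted p = 0.0237). Its 0 h libraries stood at 94.6 and 185 CPM per kb and its 4.5 h libraries at 409 and 444. The unit tim10/SPNCRNA.698, with the gene of a chaperone of mitochondrial protein import, rose by 1.33 (SE 0.21, adjusted p = 0.012).

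SPCC417.15/SPCC417.16/prl32 had 113 and 117 CPM per kb at 0 h, 253 and 258 at 2.5 h, and 297 and 282 at 4.5 h. Replicates nearly coincided at each time, and the unit rose by 1.15 at 2.5 h (adjusted p = 0.00658) and by 1.33 at 4.5 h (SE 0.14, adjusted p = 0.00497). The unit mug73/mlo1, with genes of a transporter and an RNA-binding protein, went from 40.1 and 46.0 to 100.1 and 114 CPM per kb at 4.5 h and rose by 1.31 (SE 0.16, adjusted p = 0.00693).

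Of the 15 units that fell at 4.5 h, 9 also fell from 2.5 to 4.5 h. Both comparisons use the 4.5 h libraries, and the number of all tested units that fell in both was not counted. SPAC25B8.09/SPAC25B8.10 joins a pair of genes that RefSeq both describes as trans-aconitate 3-methyltransferases. It had 40.7 and 42.3 CPM per kb at 0 h, 49.5 and 55.2 at 2.5 h, and 18.1 and 21.3 at 4.5 h. The 4.5 h libraries lay below all others, with a log2 fold change of -1.08 against 0 h (SE 0.15, adjusted p = 0.0105) and -1.41 against 2.5 h (SE 0.15, adjusted p = 0.0152).

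SPAC11D3.01c/SPAC11D3.02c, with genes of a Con-6 family protein and an acetyltransferase, followed the same course. Its level was 104 and 73.9 CPM per kb at 0 h, 119.1 and 119.9 at 2.5 h, and 42.4 and 39.4 at 4.5 h. The 4.5 h libraries lay below all others, and the log2 fold change against 0 h was -1.12 (SE 0.19, adjusted p = 0.0155). Others in this group were mug147/tam13 (-1.17), dpm2/rec6 (-1.11), toe1/uck2 (-0.95), with the gene of a uracil phosphoribosyltransferase, and mpo1/gna1 (-0.89). SPBC365.16/SPNCRNA.135 also fell against 0 h (-0.92, adjusted p = 0.0288), from 304 and 405 to 196 and 179 CPM per kb, but its change from 2.5 h did not pass (-0.54, adjusted p = 0.128). Rec6 is a protein of meiotic recombination, and tam13 and mug147 are named for their meiotic transcripts.

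The lowest value at 4.5 h was that of SPBC16A3.17c/SPNCRNA.440, with a transporter gene, at -1.24 (SE 0.24, adjusted p = 0.0218). Its 0 h libraries stood at 123 and 193 CPM per kb, those of 2.5 h at 137 and 158, and those of 4.5 h at 71.3 and 62.9. The libraries of 0 and 2.5 h overlapped and those of 4.5 h lay below them.

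The third question was what differed between the later times. Of the 340 units, 9 were higher and 17 lower at 4.5 h than at 2.5 h by the test, 7.65% in all, against a background of 10.3% (3.34% rose and 6.91% fell). The split depended on the scaling: with DESeq2 size factors 4 rose and 15 fell, and with library totals 0 rose and 13 fell (by DESeq2's own test 17 rose and 24 fell). Leaving out 1 library moved the calls over all tested units as widely as those among the 340 members. The count was 122 and 121 without replicate 1 and 2 of 0 h, and 0 without any single library of 2.5 or 4.5 h, when 32 to 50 units had an unadjusted p under 0.05 (DESeq2 was not run with libraries left out).

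The units that fell were in part those that had risen before: 6 rose to 2.5 h and then fell, and 2 fell and then rose. Both comparisons use the 2.5 h libraries, and how many of all tested units turned in this way was not counted. The plainest case was taf13/SPNCRNA.1287, with the gene of a subunit of the general transcription factor TFIID and an upstream noncoding gene that RefSeq calls a possible alternative UTR. It had 18.6 and 14.4 CPM per kb at 0 h, 52.5 and 89.5 at 2.5 h, and 18.3 and 18.4 at 4.5 h. The 2.5 h libraries lay above all the others, which lay together; it rose by 2.11 to 2.5 h (SE 0.29, adjusted p = 0.00837). From there to 4.5 h its log2 change was -1.95 (SE 0.29, adjusted p = 0.0238).

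The unit SPBC3H7.05c/pof9/ser2, with genes of an F-box protein and of phosphoserine phosphatase, had 68.6 and 72.3 CPM per kb at 0 h, 124 and 120 at 2.5 h, and 64.6 and 63.4 at 4.5 h. It rose by 0.79 (adjusted p = 0.0155) and then fell by 0.93 (adjusted p = 0.0238), to values just below those of 0 h. The unit wdr83/adl1, which holds a DNA ligase gene, rose by 1.07 (adjusted p = 0.014) and fell by 1.04 (adjusted p = 0.0309).

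The reverse course was that of nog2/snR191, the gene of a GTPase of ribosome export that also carries the small nucleolar RNA snR191. The rule kept this unit because its identifiers do not use the word SNORNA. It had 165 and 166 CPM per kb at 0 h, 98.4 and 102 at 2.5 h, and 175 and 171 at 4.5 h. Replicates nearly coincided, and the rise from 2.5 to 4.5 h was 0.78 (SE 0.13, adjusted p = 0.0307). The other was dhm1/puf6, at 93.7 and 88.4, then 62.1 and 62.9, then 96.2 and 94.3 CPM per kb, with a rise of 0.61 (adjusted p = 0.0449).

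Among the other rises from 2.5 to 4.5 h were rim1/SPAC2F3.05c (1.18), with the gene of a mitochondrial single-strand DNA-binding protein, emp24/SPCC24B10.18 (0.90), of COPII vesicle traffic, SPBC8D2.11/new15 (0.77), with a mitochondrial ribosomal protein gene, and fcf2/bet5 (0.76), which joins rRNA processing with the TRAPP complex of vesicle traffic. Of these, fcf2/bet5 was also called against 0 h (0.60, adjusted p = 0.0459), a call that most alternatives ended. Its adjusted p was 0.0763 with DESeq2 size factors, 0.157 with library totals, 0.0623 by DESeq2 and 0.0554 without replicate 1 of 0 h (where the value was 0.40), and over all alternatives it ran from 0.0104 to 0.324. The largest falls after the taf13 unit were dpm2/rec6 (-1.58), mpo1/gna1 (-1.57) and SPAC11D3.01c/SPAC11D3.02c (-1.55).

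Units were then grouped by the kind of genes they hold; differences between these groups were not tested. At 2.5 h the 260 units with protein-coding genes only had 24 rises and 2 falls and a median of 0.06. The 60 with 1 protein-coding gene and a noncoding one had 12 rises and 2 falls and a median of 0.29, and the 11 with noncoding genes only had 4 calls, all rises, and a median of 0.89. Single-gene coding units had 298 rises and 253 falls of 4094 (median -0.08), and noncoding units 301 rises and 5 falls of 749 (median 1.07). At 4.5 h the medians were 0.07 (13 rises, 10 falls), 0.29 (12 and 3) and 0.80 (3 and 1) in the same order. Without replicate 1 or 2 of 0 h the 2.5 h medians were 0.08 and 0.06, 0.30 and 0.23, and 1.18 and 0.15, so the 0 h libraries moved the value of the 11 noncoding units most. The 4.5 h medians without replicate 1 or 2 of 0 h were 0.03 and 0.08, 0.37 and 0.19, and 0.47 and 0.46.

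**Figure D4:**
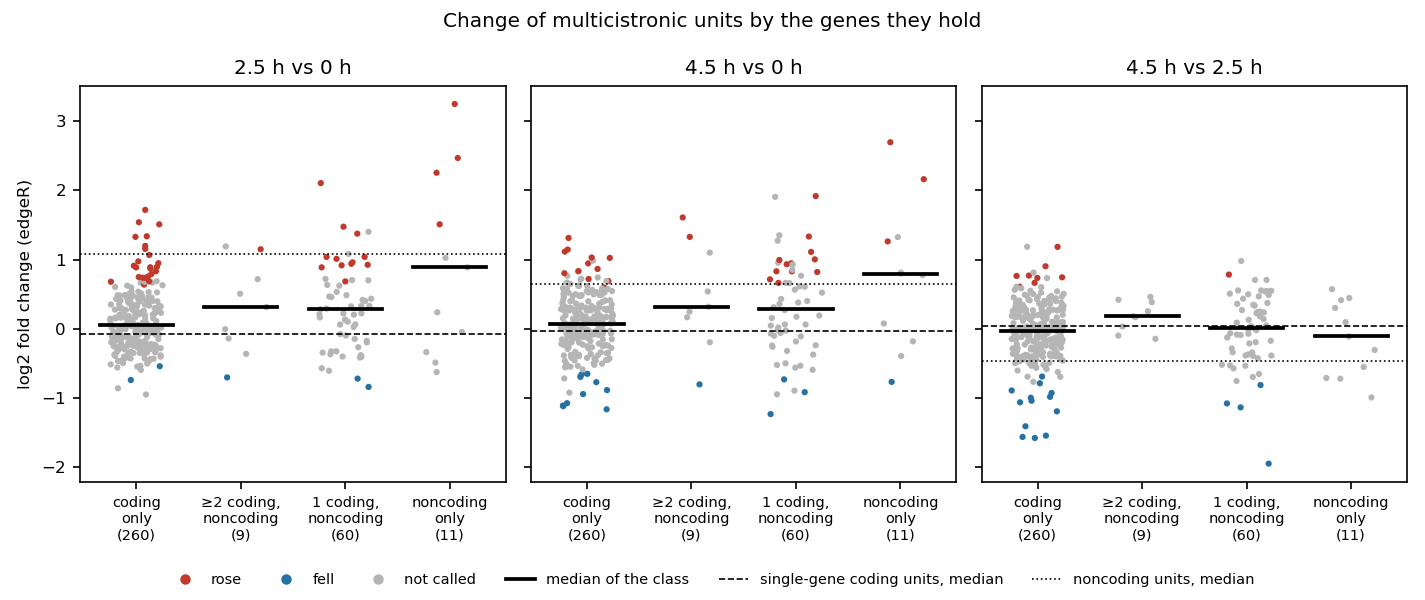
Log2 fold change (edgeR, vertical axis) of each of the 340 units (dots) by the genes they hold, in the 3 comparisons; the solid bar is the median of the class, the dashed and dotted lines the medians of single-gene coding and of noncoding units. At 2.5 h the class medians run from 0.06 for coding only to 0.89 for noncoding only.

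The units with 1 protein-coding gene were also grouped by the place of the noncoding gene. With the noncoding gene downstream (19 units) 7 rose and 1 fell at 4.5 h, with a median of 0.77, and the median from 2.5 to 4.5 h was 0.37. With the noncoding gene upstream (29 units) 3 rose and 2 fell at 4.5 h, with a median of -0.02, and from 2.5 to 4.5 h the median was -0.09. At 2.5 h against 0 h the downstream median was not the higher one. Then 4 rose and 1 fell downstream (26.3%, median 0.21), and 7 rose and 0 fell upstream (24.1%, median 0.29), against 17.4% called of all tested units. The calls at 4.5 h were 42.1% downstream and 17.2% upstream, against 17.9% of all tested units. Fewer were called in both groups, as over all tested units, when a library of 2.5 or 4.5 h was left out. The share called downstream was then no longer above that of all tested units. Without replicate 1 or 2 of 0 h the 4.5 h medians were 0.60 and 0.59 downstream and -0.25 and 0.10 upstream. The difference between these groups was not tested.

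Examples of the downstream kind follow. The unit ish1/SPNCRNA.1523, with the gene of a nuclear envelope protein of stress and stationary phase, had 99.0 and 156 CPM per kb at 0 h, 309 and 352 at 2.5 h, and 247 and 264 at 4.5 h. It rose by 1.38 at 2.5 h (SE 0.25, adjusted p = 0.0163) and 1.00 at 4.5 h (adjusted p = 0.04). The unit fes1/SPNCRNA.1653, with the gene of an exchange factor of the Hsp70 chaperone, rose by 1.11 at 4.5 h (adjusted p = 0.0304), from 232 and 357 to 596 and 677 CPM per kb. The unit hsp3104/SPNCRNA.609, of a glyoxalase III, rose by 1.48 at 2.5 h (SE 0.36, adjusted p = 0.0432). These 3 were chosen after their values were seen.

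Units were also split by overlap with a coding unit on the other strand, without a test of the difference. At 2.5 h against 0 h, of the 82 such units with protein-coding genes only, 13 were called, all rises (15.9%, median 0.22). Among the 178 without such overlap 11 rose and 2 fell (7.30%, median 0.02). Of all tested units 17.4% were called. In the same 82, 4 rose and 4 fell at 4.5 h, and 1 rose and 7 fell from 2.5 to 4.5 h. These calls were 9.76% in each comparison, against 17.9% and 10.3% of all tested units. In the 178 others 9 rose and 6 fell at 4.5 h, and 7 rose and 6 fell from 2.5 to 4.5 h. At 2.5 h single-gene coding units had 144 rises and 40 falls among 1160 overlapped (15.9%) and 154 rises and 213 falls among 2934 others (12.5%). Without replicate 1 or 2 of 0 h the medians of the 82 units were 0.17 and 0.23. An example is SPBC1539.02/sid4, with the gene of a scaffold of the septation network, overlapped over 42.9% of its length, which rose by 1.20 at 2.5 h (SE 0.22, adjusted p = 0.0183) and by 0.83 at 4.5 h (adjusted p = 0.0493; 0.49 without replicate 1 of 0 h). The part of reads from the other strand in these rises was not tested.

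By length, the median change from 2.5 to 4.5 h was 0.15 in the 114 shortest units (226 to 2637 bases), -0.03 in the 112 of middle length (2646 to 3876 bases) and -0.13 in the 114 longest (3887 to 10258 bases). Without replicate 2 of 2.5 h these medians were 0.05, -0.02 and -0.08, in the same order but closer together. Single-gene coding units of the same length ranges had medians of 0.08, -0.02 and -0.08. At 2.5 h against 0 h the 3 medians of the members had no such order (0.10, 0.05 and 0.16). Over the 340 units the rank correlation with length was -0.22 for the change from 2.5 to 4.5 h, and that with the authors' deposited score of synthesis time was -0.36. These are descriptions over units that share libraries. At 2.5 h against 0 h the medians were 0.10, 0.13 and 0.41 for units of 2, 3 and 4 genes, the last being 6 units. By the shortest spacer they were 0.04, 0.04, 0.07 and 0.09, from under 300 to at least 1000 bases. Units with and without AATAAA in a spacer had medians of 0.07 and 0.04.

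Among the longest units, vps1302/spo2 (10115 bases) was at -0.39 at 4.5 h (adjusted p = 0.171) and pfl2/SPAPB18E9.04c/SPAPB18E9.05c (9771 bases), also among the highest per kb, at 0.27 (adjusted p = 0.442). SPAC4G8.08/SPAC4G8.09/SPNCRNA.159/SPNCRNA.681, of 4 listed genes, was at 0.31 at 2.5 h (adjusted p = 0.231). With 4 protein-coding genes, mal2/pop100/ypf1/SPAC25B8.18 rose by 0.76 at 2.5 h (SE 0.16, adjusted p = 0.0264) and was not called at 4.5 h. Mal2 is a kinetochore protein and Ypf1 an intramembrane protease.

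The highest levels were those of tdh1/SPNCRNA.1550, with the gene of the glycolytic enzyme glyceraldehyde-3-phosphate dehydrogenase. The unit had 3786 and 441 CPM per kb at 0 h, 4051 and 1866 at 2.5 h, and 2412 and 3167 at 4.5 h. The groups overlapped widely and no difference could be read from them (SE 1.00 in each comparison). SPAC27E2.11c/prl53 had 2563 and 1409 at 0 h, 2258 and 2187 at 2.5 h, and 2873 and 3402 at 4.5 h (0.66 at 4.5 h, adjusted p = 0.203). By contrast fhn1/SPNCRNA.133, with the gene of a protein of the eisosome, a membrane domain, had 1283 and 1425 at 0 h and 2521 and 2295 at 4.5 h and rose by 0.83 (adjusted p = 0.0418). The unit ppe1/ssa2, with genes of a PP6-type phosphatase and an Hsp70 chaperone, stood at 1034 and 606 at 0 h, 702 and 723 at 2.5 h, and 1503 and 1739 at 4.5 h. Its 4.5 h libraries were the highest, at 1.19 over 2.5 h (adjusted p = 0.0601), which did not pass.

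By function, units were placed in 14 lists by the symbols of their genes; 176 of 340 fell in at least 1. Of 26 units with cell cycle and cytoskeleton genes 4 were called at 2.5 h, all rises (15.4%, below the 17.4% of all units), with a median of 0.31; DESeq2 called 4 rises and 1 fall. At 4.5 h the unit of sid4 was called and the median was 0.09. Those of 2.5 h were the units of sid4, mal2, mis14 (a kinetochore protein gene) and ppk38. Of 9 with stress genes 3 were called at each time against 0 h, all rises (medians 0.36 and 0.72), the units of tpx1 and ish1 at both, hsp3104 at 2.5 h and, at 4.5 h, ceo5/grx1 of a glutaredoxin (0.72, adjusted p = 0.0242). In the other units of this list 15 of 52 were called at 2.5 h and 18 of 52 at 4.5 h (28.9% and 34.6%, against 33.3% of the members).

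Of 19 units with genes of meiosis and sporulation 3 rose at 2.5 h, all calls being rises (15.8%, below the 17.4% of all units). At 4.5 h 2 rose and 2 fell (21.1%, against 17.9% of all units). The risers at 4.5 h were mug73/mlo1 and mug108/SPAC29A4.22 and the fallers dpm2/rec6 and mug147/tam13. In the other 69 tested units of this list 13 rose and 2 fell at 2.5 h, and 5 rose and 2 fell at 4.5 h. Of 12 units with genes of ribosome assembly 2 rose (rrp15/SPAC227.19c at 1.33 and noc202/hrd302 at 0.89) and nog2/snR191 fell at 2.5 h. That was 25% of the 12, against 17.4% of all units. In the other 79 units of the list 2 rose and 7 fell at 2.5 h. Of 6 units with mitochondrial ribosomal genes mus81/mrpl4 was called. It pairs the gene of the Mus81 nuclease of DNA repair with a ribosomal one, and rose by 0.89 at 2.5 h and 0.86 at 4.5 h (adjusted p = 0.0139). That was 16.7% of the 6 at each time, against 12.7% at 2.5 h and 16.4% at 4.5 h in the other units of the list.

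Of 12 units with splicing genes 2 rose at 2.5 h (16.7%, against 17.4% of all units), while the median was -0.16 and 4 of the 12 values were positive. Of these 12, cwf7/SPBC28F2.05c/mdm12, of the Prp19 complex and of the mitochondrial tether ERMES, rose at both times (1.15 and 1.12). In the same list cwf29/snx3 fell at 4.5 h (-0.65, adjusted p = 0.0493). Of 11 units with proteasome and ubiquitin genes 2 were called at 2.5 h, both rises (18.2%, against 17.4% of all units). Among them was ubc7/SPNCRNA.1475 (1.04, adjusted p = 0.0181), of an endoplasmic reticulum ubiquitin-conjugating enzyme. In the other 84 units of this list 3 rose and 20 fell at 2.5 h. Of 15 units with genes of DNA replication and repair 1 rose at 2.5 h, and at 4.5 h 2 rose (mus81/mrpl4 and rad1/SPNCRNA.1040, 0.71) and exo5/SPBC685.03 fell (-0.77, adjusted p = 0.0288). These were 6.67% and 20% of the 15, against 17.4% and 17.9% of all units. Of 26 with genes of metabolism and transport 3 were called at 2.5 h, all rises (a share below the 17.4% of all units), among them his7/gid2 (0.97, adjusted p = 0.0147). At 4.5 h edgeR called 0 of these 26 (5 at an unadjusted p under 0.05; 1 rise by DESeq2), with a median of -0.11. In the other units of that list 11 rose and 21 fell at 2.5 h.

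The remaining units that the naming rule took from the lists, by the lowest p at 4.5 h, were not called there. They were osh2/rpl802/ceg1 (0.29), SPAC3A12.06c/mrpl27 (0.50), ubc8/mtr3 (0.41), png3/SPAC16E8.18 (0.41), mug74/med13 (-0.51), yrs1/asp1 (0.49), SPBC32F12.07c/duo1 (0.50) and ade5/SPCC569.09 (0.58). Their adjusted p ran from 0.052 (duo1) to 0.36 (osh2).

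Of the 13 units with cytoplasmic ribosomal protein genes edgeR called 0 in each comparison; the number was 0 also at an unadjusted p under 0.05 and by DESeq2. Of them 11 are among the 35 members at least 2-fold apart between the 0 h libraries. The 2.5 h median of these 35 was 1.01 without replicate 1 of 0 h and -0.65 without replicate 2. These directions follow from how the 35 were picked, as 34 of them were higher in replicate 1. From 2.5 to 4.5 h all 13 values were positive, with a median of 0.25, none of them called. In the other 126 units of this list 109 values were positive, with a median of 0.32, and edgeR also called 0. Among the 13 member units, rpl26/SPNCRNA.1444 had 131 and 36.7 CPM per kb at 0 h, 155 and 122 at 2.5 h, and 229 and 177 at 4.5 h. Some ribosomal protein genes have near-identical copies. How reads that fit more than 1 place were treated is not given in the sources used here, so values of such genes are uncertain.

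The partner of Spt5 sits in a member unit, SPBC21C3.15c/spt4, upstream of an aldehyde dehydrogenase gene. The unit had 102 and 78.4 CPM per kb at 0 h, 87.3 and 84.1 at 2.5 h, and 97.0 and 96.0 at 4.5 h. The later libraries lay within the range of 0 h, and the log2 fold changes were -0.07 (adjusted p = 0.817) and 0.10 (adjusted p = 0.722). Of 24 units with genes of transcription termination and 3′ end formation in the whole table, 3 were members: msi2/prl62, pfs2/cid14 and rhn1/ppk27. Their values at 2.5 h were -0.18, 0.04 and 0.01 on the log2 scale (adjusted p = 0.439, 0.906 and 0.963, edgeR).

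Genes of 1 unit were placed in the same list in 5 units: arg6/ura5, met6/ilv5, snf21/elp3, trm12/trm2 and elp6/trm141. How rare this was cannot be read, as 176 of 340 units had any listed gene and those with at least 2 were not counted. The 2 pairs within units that RefSeq gives the same product, SPBC36.01c/SPBC36.02c and SPAC25B8.09/SPAC25B8.10, are not among these. The tRNA-modification pair trm12/trm2 had 36.8 and 32.6 CPM per kb at 0 h, 25.2 and 27.3 at 2.5 h, and 29.4 and 25.6 at 4.5 h. All later libraries lay below 0 h, but the differences did not pass (-0.40, adjusted p = 0.123, and -0.34, adjusted p = 0.18).

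The members' share of each library's assigned counts was 14.4% and 13.7% at 0 h, 16.4% and 15.7% at 2.5 h, and 15.4% and 16.3% at 4.5 h. All later libraries lay above both 0 h libraries. The mean difference was 1.96 percentage points at 2.5 h and 1.76 at 4.5 h (exact two-sided permutation test over libraries, p = 0.333 for both, the smallest that 2 against 2 allows). From 2.5 to 4.5 h it was -0.20 points, which turned to 0.13 without replicate 1 of 2.5 h and 0.26 without replicate 1 of 4.5 h. Units with at least 2 protein-coding genes gave 0.92 points at 2.5 h and 0.69 at 4.5 h, and those with 1 protein-coding gene and a noncoding one 0.97 and 1.03. Single units weighed on these sums: the tdh1 unit took 1.33% and 0.183% of the 0 h libraries, and ppe1/ssa2 gained 0.479 points by 4.5 h.

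**Figure D5:**
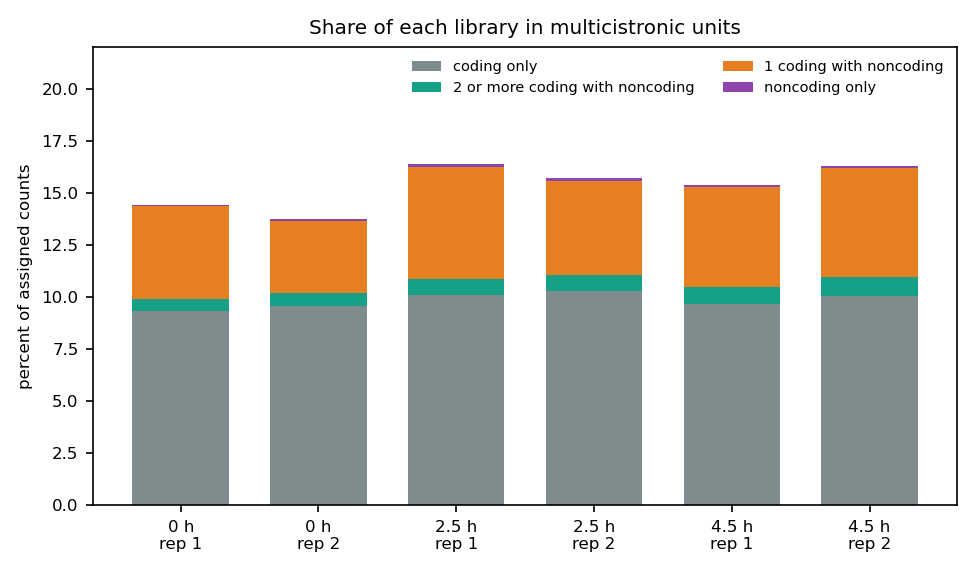
Percent of assigned counts (vertical axis from 0) in the 340 units for each library, stacked by the genes the units hold. The 0 h bars reach 14.4% and 13.7% and the 4 later bars 15.4% to 16.4%.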

How the data were processed

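The authors deposited whole-number read counts per transcription unit, 1 file per library, not normalised, and a table of units with classes, identifiers, introns and kinetic scores whose time unit is not stated. STAR 2.3.0, SAMtools and the assembly ASM294v2 are named per the submitters' processing notes. Which program counted, whether by strand, and what became of multiply mapped reads is not given in the sources used here. All deposited counts went into 1 robust quasi-likelihood fit over all 6 libraries (edgeR 4.0.16, R 4.3.3) after filterByExpr by group and TMM scaling, with Benjamini-Hochberg adjustment over 5208 units. DESeq2 1.42.0, other scalings and filters, a replicate block and leaving out each library were alternatives. SE is the fold change divided by the square root of F. The fitting step was tested on simulated data. Symbols, biotypes, coding regions and sequences come from RefSeq ASM294v3, against which 519 of 520 member introns had splice site bases. Units were named by a rule (8 largest rises and falls against 0 h, 5 between 2.5 and 4.5 h, the highest, longest and most gene-rich units, 2 per list, and units that turned); others named to spell out a list, and spt4, were chosen after their values were seen. The members and lists were chosen with earlier results of these data known. P-values measure the spread between these libraries. From the lists, 15 symbols whose RefSeq product went against a list's name were dropped. One unit that the rule names is not reported here.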

Additional observations from a re-analysis of the deposited data

Results flagged for a closer look

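Of the 26 units called between 2.5 and 4.5 h by edgeR, 8 had been called in the opposite direction between 0 and 2.5 h, so that their effects at the later times differed. Both comparisons use the 2.5 h libraries, and the number of such units over the whole table was not counted. After a rise at 2.5 h, the log2 change from 2.5 to 4.5 h was -1.95 for taf13/SPNCRNA.1287, -0.93 for SPBC3H7.05c/pof9/ser2, -0.99 for dpp2/SPACUNK4.09/gor1, -1.04 for wdr83/adl1, -0.79 for mis14/SPAC688.03c and -1.08 for SPAC29B12.14c/prl28. After a fall it was 0.78 for nog2/snR191 and 0.61 for dhm1/puf6. With any single library of 2.5 or 4.5 h left out none of the 340 units was called in that comparison (32 to 50 had an unadjusted p under 0.05 by edgeR).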

How the results depend on the processing

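Single libraries moved the counts of called members most. With 1 library left out they ranged from 0 to 150 at 2.5 h and 2 to 147 at 4.5 h against 0 h, and from 0 to 122 between 2.5 and 4.5 h; where that left 1 library at a time point, it was assumed to vary like the others. The change in the share of counts ranged from 1.61 to 2.31 points at 2.5 h, 1.30 to 2.22 at 4.5 h and -0.66 to 0.26 between them. With only the 4 libraries compared the counts were 19, 11 and 122, with library totals 30 and 13 (2.5 h against 0 h, and 4.5 against 2.5 h), and with DESeq2 41 between 2.5 and 4.5 h. Units with at least 2 protein-coding genes alone gave 28 and 26 against 0 h. Medians of the members kept their sign; with DESeq2 size factors they were 0.04 and 0.03 against 0 h, and they exceeded that of all units by 0.09 and 0.08, against 0.10 and 0.08 with TMM. With library totals the 4.5 h median was 0.0039, and that from 2.5 to 4.5 h -0.08. Of 73 values of named units none turned its direction past the threshold; library totals ended 13 calls, and leaving out 1 library of 2.5 or 4.5 h ended 38 to 44. With a replicate block the counts were 48, 51 and 24, and 4 named calls did not pass: dhm1/puf6 at 2.5 h (adjusted p = 0.0627) and fcf2/bet5, fhn1/SPNCRNA.133 and cwf29/snx3 at 4.5 h (0.0542, 0.0585 and 0.0506). Same-numbered libraries had correlated deviations (0.46, 0.21 and 0.10), but the labels do not pair them.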
